A study of Mus musculus and Macaca nemestrina with 20 samples.

Results

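Transcripts of 7 genes of the barriers that wrap nerve and line its vessels were followed in dorsal root ganglia (DRG), the clusters of sensory neuron cell bodies beside the spinal cord. The 7 genes were Cldn1, Cldn5, Cldn11, Tjp1, Ocln, F11r and Slc2a1, taken by symbol as 7 of the 29766 genes of the mouse tables and, in capitals, as 7 of the 35194 genes of the monkey tables. All 7 were present in both species and all 7 passed the filter on low counts in both. The genes were named for what they do, with earlier results of these libraries known. Cldn1 was also chosen by its measured values, the count differences between knockout and flox and between SADBE and vehicle, so its differences between groups are described here with no test.

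The libraries were bulk RNA sequencing of total RNA from fresh frozen DRG. Mouse libraries carried either the genotype label ADAM17 KO (7 libraries, called knockout) or the label flox (7 libraries). The flox libraries were titled control mouse DRG, and their library names read WT. ADAM17 is a membrane protease that cuts signalling proteins off the cell surface. Of the knockout libraries, 4 were labelled batch 1 and 3 batch 2, while 3 flox libraries were batch 1 and 4 were batch 2. The other 6 libraries came from pig-tailed monkeys (Macaca nemestrina), 3 taken after the skin had received SADBE (squaric acid dibutyl ester), which causes contact allergy, and 3 after vehicle. The labels name no age, no Cre driver, no deleted exon, and no number of animals behind a library, and the spread between libraries is therefore the only error measured here.

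A tight junction is a belt of membrane proteins that seals the space between neighbouring cells. Claudins and occludin form its strands, junctional adhesion molecules sit beside them, and zonula occludens proteins tie them to the actin skeleton. In peripheral nerve such belts occur in the perineurium, the flattened cell layers around a nerve fascicle that are known for claudin-1, and in the endothelium of the vessels within, known for claudin-5. Claudin-11 is best known from the myelin of oligodendrocytes and from the arachnoid barrier of the meninges, and the glucose transporter GLUT1, the product of Slc2a1, marks both perineurial cells and barrier endothelium.

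The promoters of 4 of these genes are shown because Cldn1, Cldn11 and Tjp1 were lower in the knockout libraries while Cldn5 was not called. Each is the 250 bases before the transcription start in RefSeq on GRCm38.p6, written 5′ to 3′ on the strand of the gene. Capitals mark the GC box GGGCGG or its reverse complement CCGCCC. The E-box CAGGTG, with reverse complement CACCTG, was searched in the same windows and was found in none of these 4.
Cldn1 (chr16:26371840-26372089, minus strand): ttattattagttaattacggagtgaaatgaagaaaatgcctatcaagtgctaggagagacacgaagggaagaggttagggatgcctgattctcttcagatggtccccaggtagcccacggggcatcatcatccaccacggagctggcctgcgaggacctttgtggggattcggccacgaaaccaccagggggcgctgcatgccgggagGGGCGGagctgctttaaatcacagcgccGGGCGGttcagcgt
Cldn11 (chr3:31149670-31149919, plus strand): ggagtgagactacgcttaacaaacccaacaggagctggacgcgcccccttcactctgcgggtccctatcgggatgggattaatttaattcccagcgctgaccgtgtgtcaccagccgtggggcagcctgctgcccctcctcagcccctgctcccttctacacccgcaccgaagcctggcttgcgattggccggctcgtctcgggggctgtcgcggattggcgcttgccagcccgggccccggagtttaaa
Tjp1 (chr7:65371245-65371494, minus strand): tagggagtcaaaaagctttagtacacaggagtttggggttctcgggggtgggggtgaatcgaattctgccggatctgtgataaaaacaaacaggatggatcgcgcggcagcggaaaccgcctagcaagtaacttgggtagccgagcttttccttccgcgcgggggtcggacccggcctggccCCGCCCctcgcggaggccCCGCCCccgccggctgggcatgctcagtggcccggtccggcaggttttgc
Cldn5 (chr16:18776597-18776846, plus strand): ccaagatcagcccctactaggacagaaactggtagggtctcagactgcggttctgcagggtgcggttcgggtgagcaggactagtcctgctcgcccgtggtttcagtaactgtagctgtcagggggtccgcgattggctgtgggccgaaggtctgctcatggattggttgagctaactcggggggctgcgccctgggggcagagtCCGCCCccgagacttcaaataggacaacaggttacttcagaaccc

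The Cldn1 and Tjp1 windows each held 2 GC boxes, the Cldn5 window held 1 and the Cldn11 window held 0. A GC box was present in 32.7% of 32851 mouse promoter windows of this length, and an E-box in 17.2%. Having a GC box therefore did not sort the genes that were lower from Cldn5. The 4 windows held between 55.6% and 63.6% G and C, against a median of 52.4% over all windows. The Tjp1 window lies inside the longer extent that GENCODE M21 gives this gene.

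Depth differed with both genotype and batch. Estimated counts per library ran from 12119871 to 14718895 in batch 1 knockout, 46931308 to 52085645 in batch 1 flox, 27868343 to 30767407 in batch 2 knockout and 30907687 to 35989896 in batch 2 flox. Monkey libraries held 9015657 to 22424909 counts with SADBE and 13700975 to 27111818 with vehicle. The targeted gene did not separate the genotypes: Adam17 lay between 16.1 and 34.6 CPM (counts scaled for library size with TMM factors) in the libraries labelled knockout and between 17.6 and 33.3 CPM in those labelled flox, with a log2 fold change of 0.03 ± 0.18 (SE, n = 7 against 7, edgeR adjusted p = 0.93). The genotypes are used here as labelled.

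In mouse DRG, claudin-1, claudin-11 and ZO-1 transcripts were lower in the libraries labelled knockout than in flox, while the estimate for claudin-5 was smaller than its error. The level of Cldn1 dropped by 53.1% from flox to knockout as an estimate with no test, Cldn11 fell by 60.4% and Tjp1 fell by 32.7%. Ocln, F11r and Slc2a1 had estimates below 0 that did not pass the test. With batch as a term of edgeR's quasi-likelihood test, 2 of the 6 genes other than Cldn1 had an adjusted p under 0.05, both lower, beside 15.5% of all 15654 genes tested called in either direction and 7.51% called lower (7.97% were called higher). The log2 fold changes of these 6 ran from -1.34 (Cldn11) to -0.04 (Cldn5), and the median over all genes tested was -0.0078. The genes were chosen with results of these libraries known, so their count is a description.

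**Figure D1:**
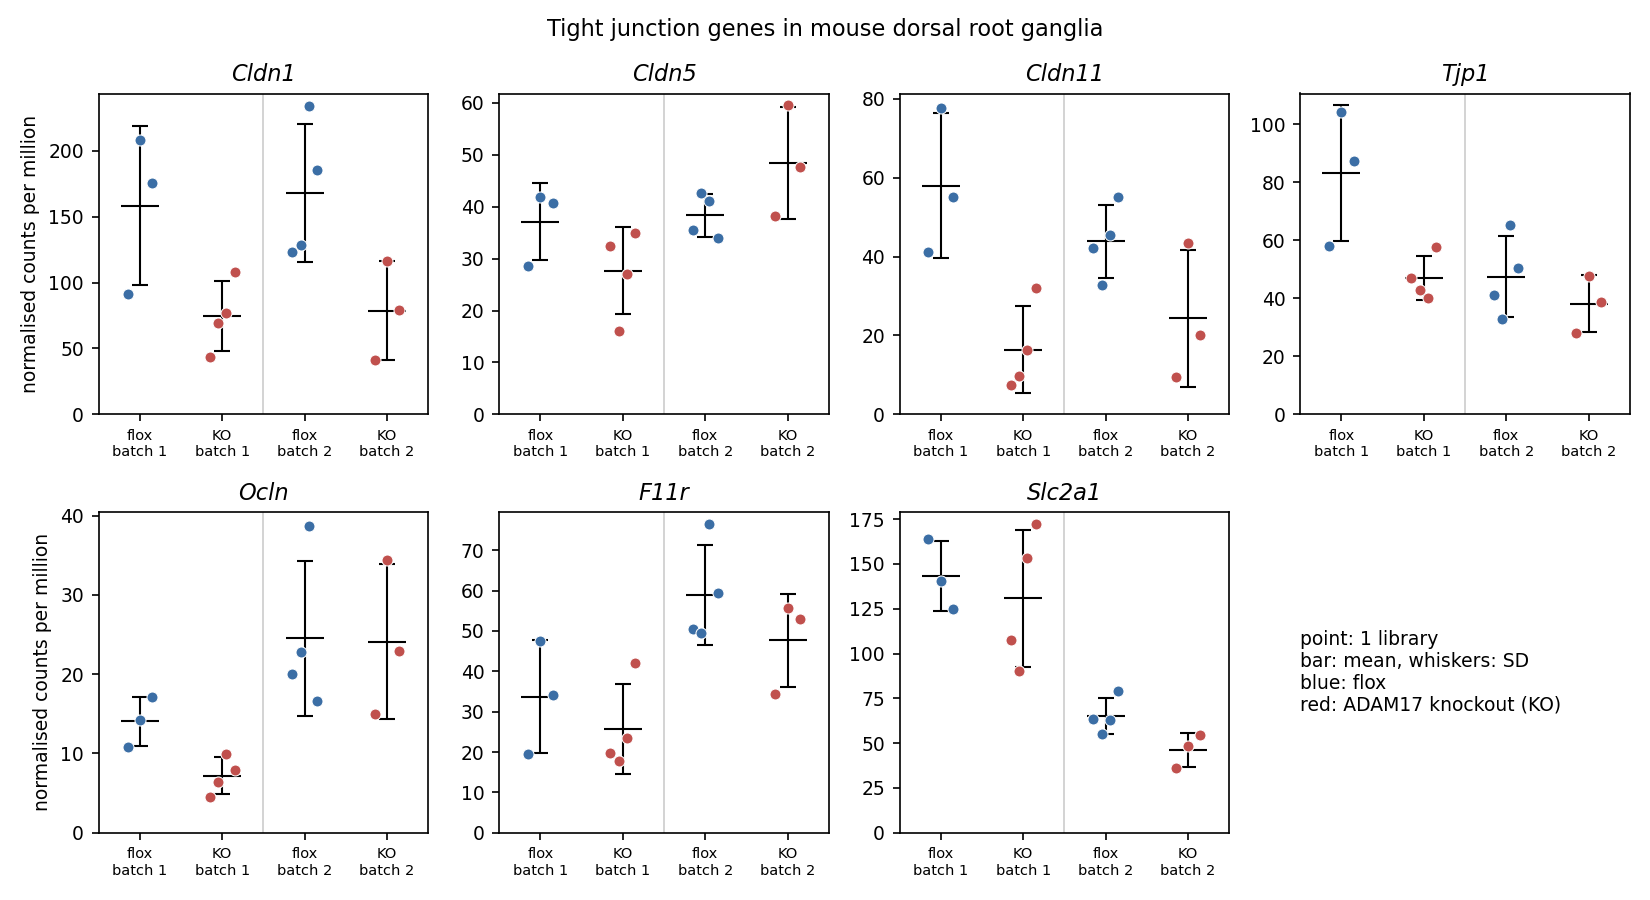
Normalised counts as CPM (vertical axes, each starting at 0) of the 7 genes in every mouse library, by genotype and batch, with mean and SD. In batch 2 every knockout library lies below every flox library for Cldn1 and Slc2a1, and in batch 1 for Cldn11, Tjp1 and Ocln.

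Claudin-1 is the strand-forming claudin of the perineurium. Its gene lies on chr16:26356642-26371841 (minus strand, GRCm38). In batch 1, Cldn1 was at 43.7, 69.4, 76.9 and 108 CPM in knockout libraries 1 to 4 and at 91.7, 208 and 176 CPM in flox libraries 1 to 3. In batch 2 it was at 41.0, 116 and 78.9 CPM in knockout libraries 5 to 7 and at 123, 129, 234 and 185 CPM in flox libraries 4 to 7. The 3 knockout libraries of batch 2 all lay below the 4 flox libraries, whereas in batch 1 knockout library 4 exceeded flox library 1. Over both batches the log2 fold change was -1.09 ± 0.26 (SE, n = 7 against 7). The estimate was the same size in each batch, at -1.13 ± 0.34 in batch 1 and -1.09 ± 0.34 in batch 2. Leaving out any single library moved it between -1.26 and -0.95.

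Claudin-11 (Cldn11, chr3:31149920-31164324, plus strand, GRCm38) had the largest estimate of the 7 genes in the fit over both batches. In batch 1 it was at 7.54, 9.68, 16.3 and 32.1 CPM in knockout libraries 1 to 4 and at 41.3, 77.8 and 55.0 CPM in flox libraries 1 to 3. In batch 2 it was at 9.39, 43.4 and 20.1 CPM in knockout libraries 5 to 7 and at 42.2, 32.7, 45.5 and 55.0 CPM in flox libraries 4 to 7. Batch 1 did not overlap, and in batch 2 knockout library 6 lay within the flox range. The log2 fold change was -1.34 ± 0.37 (SE, n = 7 against 7, edgeR adjusted p = 0.0241). Without flox library 2, the highest for Cldn11, it was -1.17 with an adjusted p of 0.0553 by edgeR, and without the batch term the adjusted p was 0.0598.

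ZO-1, the product of Tjp1 (chr7:65296165-65527781, minus strand, GRCm38), is the cytoplasmic scaffold that binds claudin tails. In batch 1, Tjp1 was at 47.1, 42.8, 40.2 and 57.5 CPM in the knockout libraries and at 58.0, 104 and 87.4 CPM in flox. In batch 2 it was at 28.1, 47.8 and 38.6 CPM in the knockout libraries and at 41.2, 32.8, 65.3 and 50.3 CPM in flox. The groups met without overlapping in batch 1, where knockout library 4 and flox library 1 were nearly equal, and they overlapped in batch 2. The log2 fold change was -0.57 ± 0.18 (SE, n = 7 against 7, edgeR adjusted p = 0.0438). That call was close to the threshold: it held in 5 of the 14 fits that each left out 1 library, with adjusted p between 0.0201 and 0.104 by edgeR. It was lost without any one of knockout libraries 1, 2, 3, 5 or 7 or flox libraries 2, 3, 6 or 7.

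Occludin (Ocln, chr13:100496507-100552718, minus strand, GRCm38) and JAM-A, the junctional adhesion molecule encoded by F11r (chr1:171437535-171464603, plus strand, GRCm38), are the other membrane proteins of the belt. In batch 1, Ocln ran from 4.46 to 9.97 CPM in the 4 knockout libraries and from 10.8 to 17.1 CPM in the 3 flox libraries, with no overlap. In batch 2 it ran from 14.9 to 34.3 CPM in knockout and from 16.6 to 38.7 CPM in flox, and the ranges overlapped almost wholly. The log2 fold change of Ocln was -1.01 ± 0.30 in batch 1 and -0.03 ± 0.33 in batch 2. Over both batches it was -0.49 ± 0.26 (edgeR adjusted p = 0.210), and -0.89 with an edgeR adjusted p of 0.0374 without knockout libraries 6 and 7. F11r overlapped in both batches, with a log2 fold change of -0.35 ± 0.22 (edgeR adjusted p = 0.293). The tables hold estimated counts, which need not be whole. Ocln had a whole estimated count (within 0.01) in 7 of 14 mouse libraries and F11r in 1 of 14, while the other 5 had one in all 14.

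Slc2a1 (chr4:119108711-119137983, plus strand, GRCm38) carries glucose across the barrier. In batch 1 it ran from 90.5 to 172 CPM in knockout and from 125 to 164 CPM in flox, so the knockout range enclosed the flox range. In batch 2 it ran from 36.1 to 54.4 CPM in knockout and from 55.0 to 79.3 CPM in flox, a gap of less than 1 CPM. The log2 fold change was -0.31 ± 0.16 over both batches (edgeR adjusted p = 0.187).

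Claudin-5 (Cldn5, chr16:18776847-18778262, plus strand, GRCm38) is the claudin of barrier endothelium. Whether its genotype difference departs from those of Cldn1 and Cldn11 was not tested. In batch 1 it was at 32.5, 16.1, 27.1 and 35.0 CPM in the knockout libraries and at 28.6, 41.9 and 40.8 CPM in flox. In batch 2 it was at 38.1, 59.6 and 47.7 CPM in the knockout libraries and at 35.6, 42.6, 41.2 and 34.0 CPM in flox. The groups overlapped in both batches, and the estimates had opposite signs, -0.46 ± 0.26 in batch 1 and 0.34 ± 0.17 in batch 2. Over both batches the log2 fold change was -0.04 ± 0.19 (edgeR adjusted p = 0.904).

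Within a single batch none of the 6 genes other than Cldn1 was called by edgeR, beside 1.80% of all genes called in batch 1 and 13.2% in batch 2. Of these 6, 3 had an unadjusted p under 0.05 in batch 1 (Cldn11, Tjp1 and Ocln), beside 16.4% of all genes, and 1 in batch 2 (Slc2a1), beside 29.2%. Knockout libraries lay below flox without overlap for 3 of the 6 in batch 1, beside 6.61% of all genes. The same held for 1 of the 6 in batch 2 (Slc2a1), beside 13.7% of all genes, and for 0 of the 6 in each batch, beside 2.25%. The difference of the genotype effect between batches, tested as an interaction, was called for 0 of the 6 by edgeR and by DESeq2, beside 1.03% of all genes by edgeR. At an unadjusted p under 0.05 it was 1 of 6, beside 13.9% of all genes. Cldn5 had the lowest p there, with a log2 difference of 0.76 ± 0.33 (unadjusted p = 0.0333, adjusted p = 0.299). For Ocln it was 0.95 ± 0.47 and for Cldn11 0.98 ± 0.71, against -0.0015 ± 0.53 for Cldn1.

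**Figure D2:**
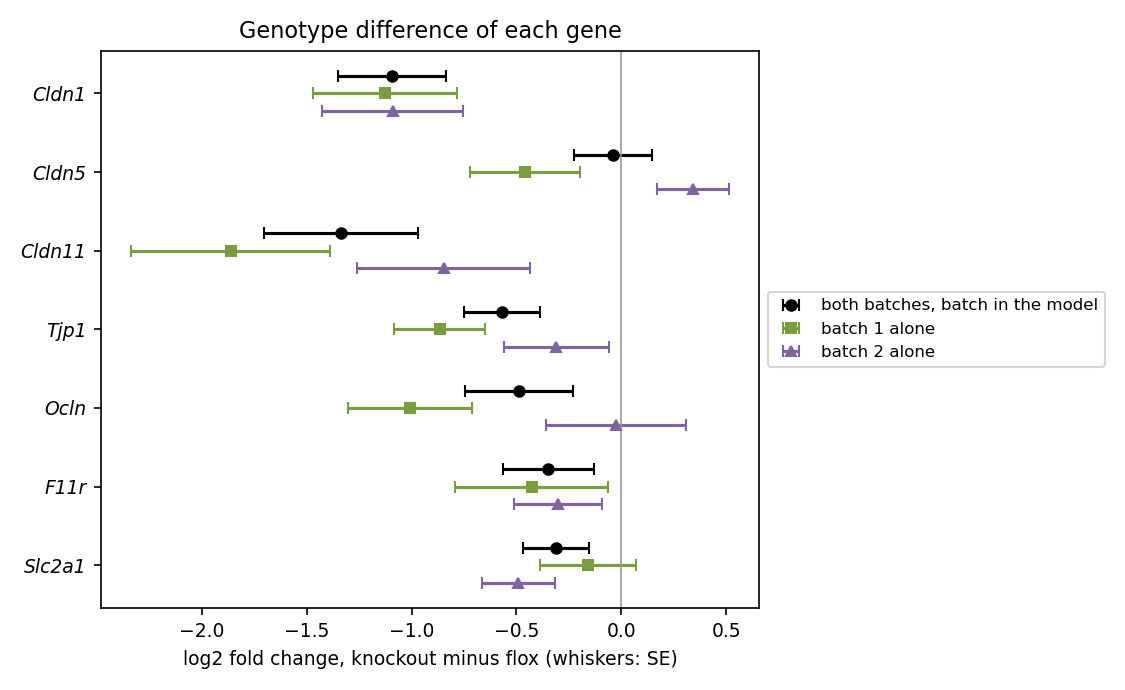
Log2 fold change of each gene, knockout minus flox (horizontal axis), with its SE, over both batches and within each batch. Cldn1 has nearly the same estimate in both batches (-1.13 and -1.09), while Ocln moves from -1.01 to -0.03 and Cldn5 from -0.46 to 0.34.

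Some of these genes differed between batches within 1 genotype. In flox, Slc2a1 fell by 1.14 ± 0.21 on the log2 scale from batch 1 to batch 2 (n = 3 against 4, edgeR adjusted p = 0.000467) and Tjp1 fell by 0.81 ± 0.24 (edgeR adjusted p = 0.0133). Thus 2 of the 7 genes were called between batches, beside 43.4% of all genes tested. F11r and Ocln had estimates of 0.80 ± 0.32 and 0.81 ± 0.33 with edgeR adjusted p of 0.0524 and 0.0637. Cldn1, at 0.08 ± 0.37, and Cldn5, at 0.05 ± 0.23, showed no batch difference beyond their error, and both estimates turned below 0 when libraries were scaled by size only.

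Levels per transcript length, as TPM, a share of transcripts corrected for their length, rescaled to the same total in each library, put Cldn1 or Slc2a1 at the top in flox. In batch 1 flox, Slc2a1 was at 82.1 ± 9.92 TPM and Cldn1 at 71.9 ± 26.7 TPM (SD, n = 3), ranges that overlapped. In batch 2 flox, Cldn1 was highest at 68.0 ± 21.3 TPM (SD, n = 4), and Cldn5, F11r, Slc2a1 and Cldn11 followed between 38.2 and 32.0 TPM with SD ranges that overlapped from one to the next. Ocln was lowest in both flox groups, at 6.46 ± 1.89 and 9.24 ± 3.77 TPM. In batch 2 knockout, Cldn5 stood first at 43.7 ± 7.10 TPM (SD, n = 3) and Cldn1 was at 28.5 ± 12.1 TPM, with SD ranges that overlapped.

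Once the group means were removed, the levels of Cldn1, Cldn11, Tjp1 and F11r still varied together from library to library, and Ocln varied with Cldn1. Residuals of log2 CPM around each genotype and batch mean were correlated over the 14 mouse libraries for all 21 pairs, with p from permutations within those groups and adjusted over the 21. All 21 Pearson correlations were above 0, and 7 had an adjusted permutation p under 0.05 (8 by Spearman). How often pairs of other genes pass in these libraries was not measured, so this count cannot be read as particular to these genes. Cldn1 went with Cldn11 (r = 0.873, rho = 0.886, adjusted permutation p = 0.00577 and 0.0042, n = 14) and with F11r (r = 0.871, rho = 0.921, adjusted permutation p = 0.00577 and 0.0042). Without the 2 libraries farthest from the median on the first gene, these were r = 0.84 and r = 0.818. Within batch 1 they were 0.87 and 0.88, and within batch 2 they were 0.876 and 0.956 (n = 7 each).

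The other pairs that passed by Pearson were Cldn1 with Tjp1 and Ocln, Cldn11 with Tjp1 and F11r, and Tjp1 with F11r. Their r ran from 0.682 to 0.848, and each was above 0 in both batches. Ocln passed with Cldn1 but not with Cldn11, Tjp1 or F11r by Pearson (adjusted permutation p = 0.0964, 0.131 and 0.0845). By Spearman, Ocln with F11r passed (rho = 0.723, adjusted permutation p = 0.0314, n = 14). No pair with Cldn5 or Slc2a1 passed, the highest being Cldn5 with F11r (r = 0.694, adjusted permutation p = 0.0845). Whether the pairs with Cldn5 are weaker than those with Cldn1 was not tested. All genes of a library share its depth and its tissue piece, and the part of these in the correlations was not tested.

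**Figure D3:**
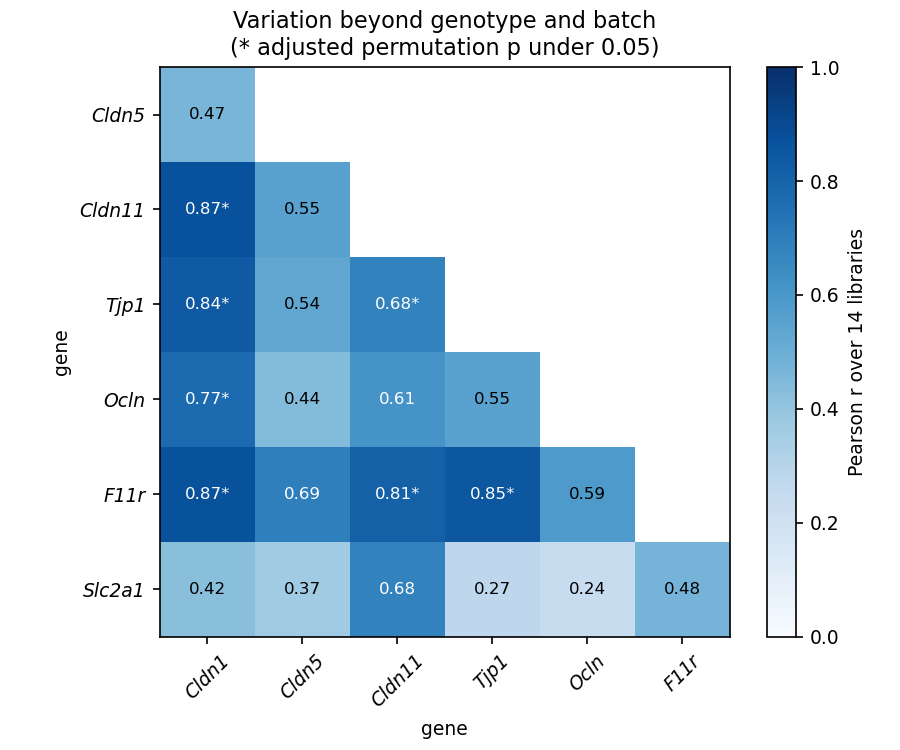
Pearson r over 14 mouse libraries (colour and number) between residuals of each pair of genes after removal of genotype and batch means; a star marks an adjusted permutation p under 0.05. The 7 starred cells are the 6 pairs among Cldn1, Cldn11, Tjp1 and F11r, and Cldn1 with Ocln.

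The genes whose level followed Cldn1 most closely over the 14 mouse libraries, after centring on batch only, were Selenbp1 (r = 0.979), Pttg1ip (0.969), Gstt1 (0.969), Cys1 (0.968) and Efemp1 (0.963). This likeness contains the genotype difference and is given without p. Cldn11 ranked 87 of 15653 genes by the same measure (r = 0.916), Tjp1 320 (0.864), F11r 569 (0.822), Ocln 1167 (0.73), Slc2a1 1986 (0.622) and Cldn5 4717 (0.312).

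Other tight junction genes moved in both directions. Of 20 tested, 5 were lower in knockout and 3 higher, beside 7.51% lower and 7.97% higher over all genes, which are also the shares to set beside each list that follows. The median log2 fold change was -0.13 beside -0.0078 over all genes. Among the 5 were Cldn19 (-0.98 ± 0.27), a claudin of Schwann cell myelin, paracingulin Cgnl1 (-0.84 ± 0.15), the scaffold Magi3 (-0.67 ± 0.21) and the polarity protein Pard3 (-0.48 ± 0.14). The 3 were Esam (1.00 ± 0.16), an adhesion molecule of endothelium and platelets, and the occludin relatives Marveld2 (1.14 ± 0.37) and Marveld3 (1.93 ± 0.45), whose flox means were below 1.5 CPM. Without knockout library 5 the lower count was 2, and in batch 1 alone it was 0 with 1 higher.

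Markers of the cell types that carry these junctions were counted in the same way. Among perineurial markers, 3 of 6 were lower and 1 higher (median -0.71), with the largest value at Lypd2 (-2.28 ± 0.38), then the laminin receptor subunit Itgb4 (-1.13 ± 0.25) and Ntn4 (-0.74 ± 0.17), while Moxd1 was higher (0.56 ± 0.15). The perineurial counts were 0 lower in batch 1 alone and 2 lower in batch 2 alone, and Moxd1 lost its call without knockout library 5 or flox library 3, in either batch alone and with libraries scaled by size only. Their summed level was 60.8 to 131 TPM over the 7 knockout libraries and 155 to 481 TPM over the 7 flox libraries, with no overlap. The fibroblast sum did not overlap either (995 to 2020 TPM in knockout, 2040 to 3860 TPM in flox). Nor did the myelinating Schwann sum (2700 to 3650 against 4720 to 7790 TPM), so this was not particular to perineurial markers. These sums use rescaled TPM, and the rescaling raised batch 1 values more than batch 2 values. Whether the sums overlap as deposited was not computed, so their lack of overlap may depend on the rescaling. Of single genes, 0.562% lay lower in CPM in every knockout library than in every flox library, a share that does not apply to sums. Lypd2 alone reached 378 TPM in flox library 2, where the perineurial sum was 481 TPM. Both are rescaled values, and this library was raised the most by the rescaling. The perineurial sum without Lypd2 was not computed. Among arachnoid markers, 6 of 8 were lower (median -1.39), among them the transporter Slc47a1 (-2.07 ± 0.46), the transcription factor Foxc1 (-1.21 ± 0.30) and the retinoic acid binding protein Crabp2 (-1.59 ± 0.47). The arachnoid count was 3 without any one of knockout libraries 1, 2, 3 or 5 or flox libraries 2, 3 or 6, and it was 8 without knockout library 6. In batch 1 alone it was 3 and in batch 2 alone 0. The prostaglandin D synthase Ptgds, which was not called (-1.28 ± 0.54, edgeR adjusted p = 0.124), made up 94.7% to 98.3% of the summed level in each mouse library. Without Ptgds the arachnoid sum was 36.0 to 67.5 TPM in batch 1 knockout against 94.7 to 368 TPM in flox, and 115 to 443 against 431 to 560 TPM in batch 2. Knockout library 6, the highest of the knockout libraries for Cldn1 and Cldn11, was also the highest of them for the arachnoid sum with Ptgds (25300 TPM) and without it (443 TPM).

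Of 13 endothelial markers tested, 1 was called lower (Ptprb, -0.63 ± 0.15) and 0 higher by edgeR, near the share over all genes, with a median of 0.03. At an unadjusted p under 0.05 there were 5 of 13, and DESeq2 called 1 lower and 1 higher. Their summed levels overlapped in both batches. The difference between the endothelial list and the perineurial or arachnoid list was not tested. Pecam1 had an estimate of 0.37 ± 0.20 and Cdh5 one of -0.58 ± 0.26, neither called. Without knockout libraries 6 and 7 the endothelial count of lower genes was 0, as in batch 1 alone. It was 2 without flox library 1 or with libraries scaled by size only, and 3 without knockout library 4. The count of higher genes was 1 without knockout library 2 or flox library 3, and in batch 2 alone. Among genes of barrier transport 1 of 15 was called, the efflux pump Abcg2 (1.06 ± 0.12). Among the other glucose transporters 1 of 8 was called, the neuronal and white cell transporter Slc2a3 (1.17 ± 0.15), opposite in sign to the estimate of Slc2a1.

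Markers of other cell types differed as well. Fibroblast markers were lower for 6 of 7 (median -1.26), among them the collagen chains Col1a1 (-2.04 ± 0.26) and Col1a2 (-1.61 ± 0.22). Myelinating Schwann cell markers were lower for 7 of 10 (median -0.90), with the connexin Gjb1 at -1.14 ± 0.22 and the myelin protein Prx at -1.18 ± 0.23. Mural cell markers were lower for 3 of 10 (median -0.77), with the proteoglycan Cspg4 at -1.21 ± 0.26 and smooth muscle actin Acta2 at -1.16 ± 0.25. Neutrophil markers were higher for 8 of 8 (median 3.11), with the calprotectin subunits S100a8 and S100a9 at 3.12 ± 0.37 and 3.19 ± 0.38, and were summed at 1310 to 19500 TPM in knockout and 118 to 2390 TPM in flox. Sensory neuron markers were higher for 5 of 10, among them the transcription factor Isl1 (1.09 ± 0.11) and the substance P precursor Tac1 (0.78 ± 0.11), and satellite glia markers for 1 of 5 (Cdh19, 0.70 ± 0.16). Among oligodendrocyte markers, which bear on Cldn11, 1 of 7 was called lower (Sox10, which Schwann cells share, -0.75), and Mog had its highest level, 38.0 TPM, in flox library 1. Epidermal markers, which bear on Cldn1, gave 1 higher (Krt14) and 1 lower (Krtdap) of 7. Of 11 in the mouse tables, 5 never reached 1 TPM, and Krt5 never exceeded 0.05 TPM. Others were well above that: Krtdap at 1.09 to 73.7 TPM, Perp at 15.8 to 67.8 TPM and Cdh1 at 10.1 to 33.2 TPM. None of 6 platelet, 6 erythroid or 5 muscle markers was called by edgeR, with 2, 0 and 0 at an unadjusted p under 0.05 (30.9% of all genes had such a p) and none called by DESeq2. In bulk tissue, fewer cells of a type and less RNA per cell cannot be told apart, and the part of these markers in the differences of the 7 genes was not tested.

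**Figure D4:**
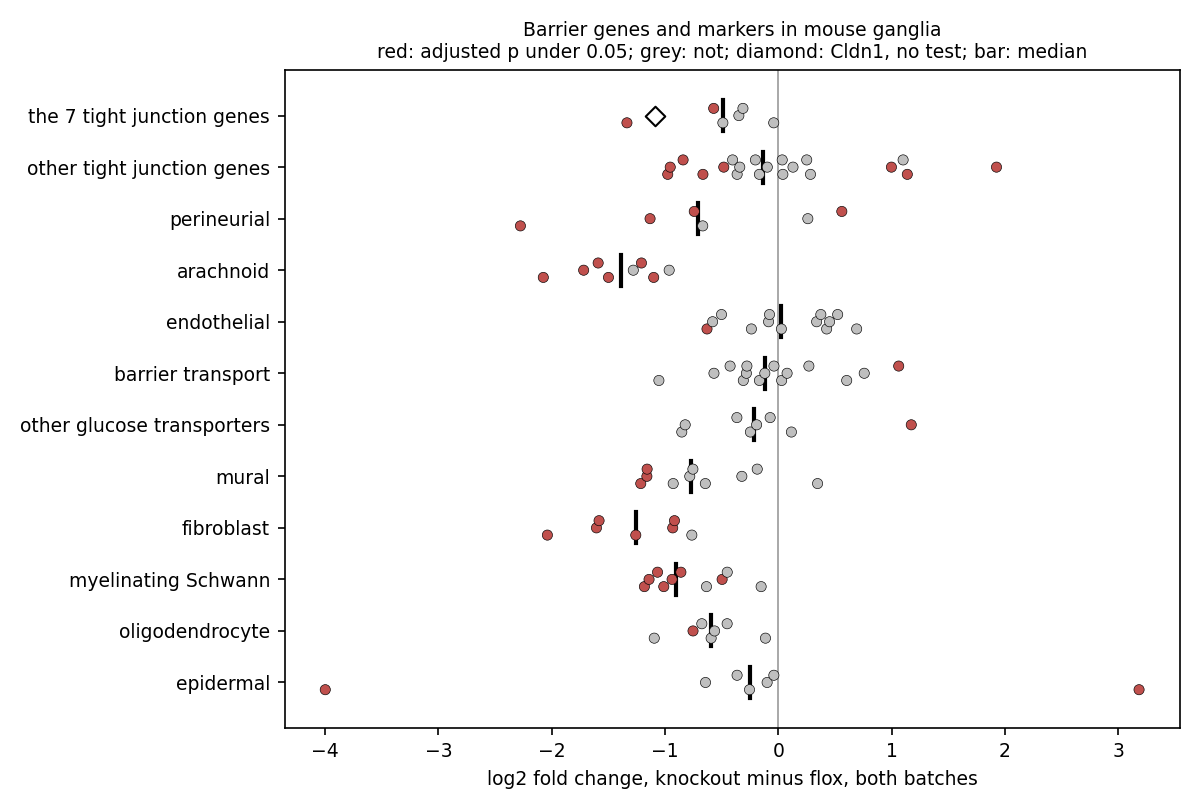
Log2 fold change, knockout minus flox over both batches (horizontal axis), of each gene tested in 12 lists; red points had an adjusted p under 0.05, the diamond is Cldn1 and the bar is the median of the list. Perineurial, arachnoid and fibroblast medians lie at -0.71, -1.39 and -1.26, and the endothelial median at 0.03.

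In monkey DRG, CLDN1 was lower in all 3 SADBE libraries than in any vehicle library, and the vehicle libraries differed widely. It was at 3.23, 1.80 and 2.66 CPM with SADBE and at 58.3, 22.5 and 4.11 CPM with vehicle. The SADBE values were close together, vehicle library 1 was the highest and vehicle library 3 lay just above the SADBE range. The log2 fold change was -3.45 ± 0.88 (SE, n = 3 against 3), -2.37 without vehicle library 1, and -3.37 with SADBE libraries 2 and 3 summed to 1 library. Those 2 libraries were the most alike of any monkey pair within a group, with a chi-square per gene of 26.5 against 269 to 507 for the other pairs. The labels do not say whether they came from 1 animal. SADBE libraries lay below vehicle without overlap for 4.56% of the 17988 genes tested.

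None of the 6 genes other than CLDN1 was called by edgeR in monkeys, beside 0% of all genes. At an unadjusted p under 0.05 there was 1 of 6 (SLC2A1), beside 3.06% of all genes. SADBE libraries lay below vehicle without overlap for 1 of 6 (OCLN, at very low counts), beside 4.56% of the 17988 genes tested. DESeq2 called none of these 6, and gave OCLN no adjusted p. SLC2A1 was at 23.4, 9.44 and 13.3 CPM with SADBE and at 77.3, 50.8 and 22.1 CPM with vehicle. The groups overlapped at SADBE library 1 and vehicle library 3. Its log2 fold change was -1.70 ± 0.58 (edgeR unadjusted p = 0.0175, adjusted p = 0.999). The value of -0.31 ± 0.16 for Slc2a1 in mice is for knockout against flox, another comparison, so the species cannot be compared by these values.

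OCLN was near the detection limit, with 0, 4 and 0 estimated counts in the SADBE libraries and 18, 26 and 7 in the vehicle libraries. All 3 SADBE values were lower, and no fold is given because 2 libraries held no count. CLDN11 was at 2.98, 42.0 and 981 CPM with SADBE and at 33.1, 17.8 and 99.6 CPM with vehicle. One library set the SADBE mean: the log2 fold change was 2.77 ± 1.60 (edgeR adjusted p = 0.999) and -1.18 without SADBE library 3. The arachnoid markers were highest in that library too, where PTGDS reached 5070 TPM and CRABP2 128 TPM and the summed arachnoid level without PTGDS was 161 TPM, against 8.43 to 127 TPM in the other 5 libraries. The part of arachnoid tissue in the CLDN11 value was not tested.

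TJP1 and CLDN5 showed the same pull of a single library. TJP1 was at 29.7, 10.3 and 22.8 CPM with SADBE and at 67.5, 23.5 and 8.66 CPM with vehicle, with a log2 fold change of -0.66 ± 0.74 that became 0.38 without vehicle library 1. CLDN5 was at 15.9, 17.3 and 17.5 CPM with SADBE and at 23.5, 7.74 and 4.98 CPM with vehicle, with a log2 fold change of 0.48 ± 0.60 that became 1.40 without that library. F11R overlapped fully, at 12.9 to 39.3 CPM against 18.8 to 34.3 CPM, with a log2 fold change of 0.11 ± 0.51. The estimated counts of CLDN11 and F11R were not whole (within 0.01) in any of the 6 libraries, while those of the other 5 genes were whole in all 6.

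**Figure D5:**
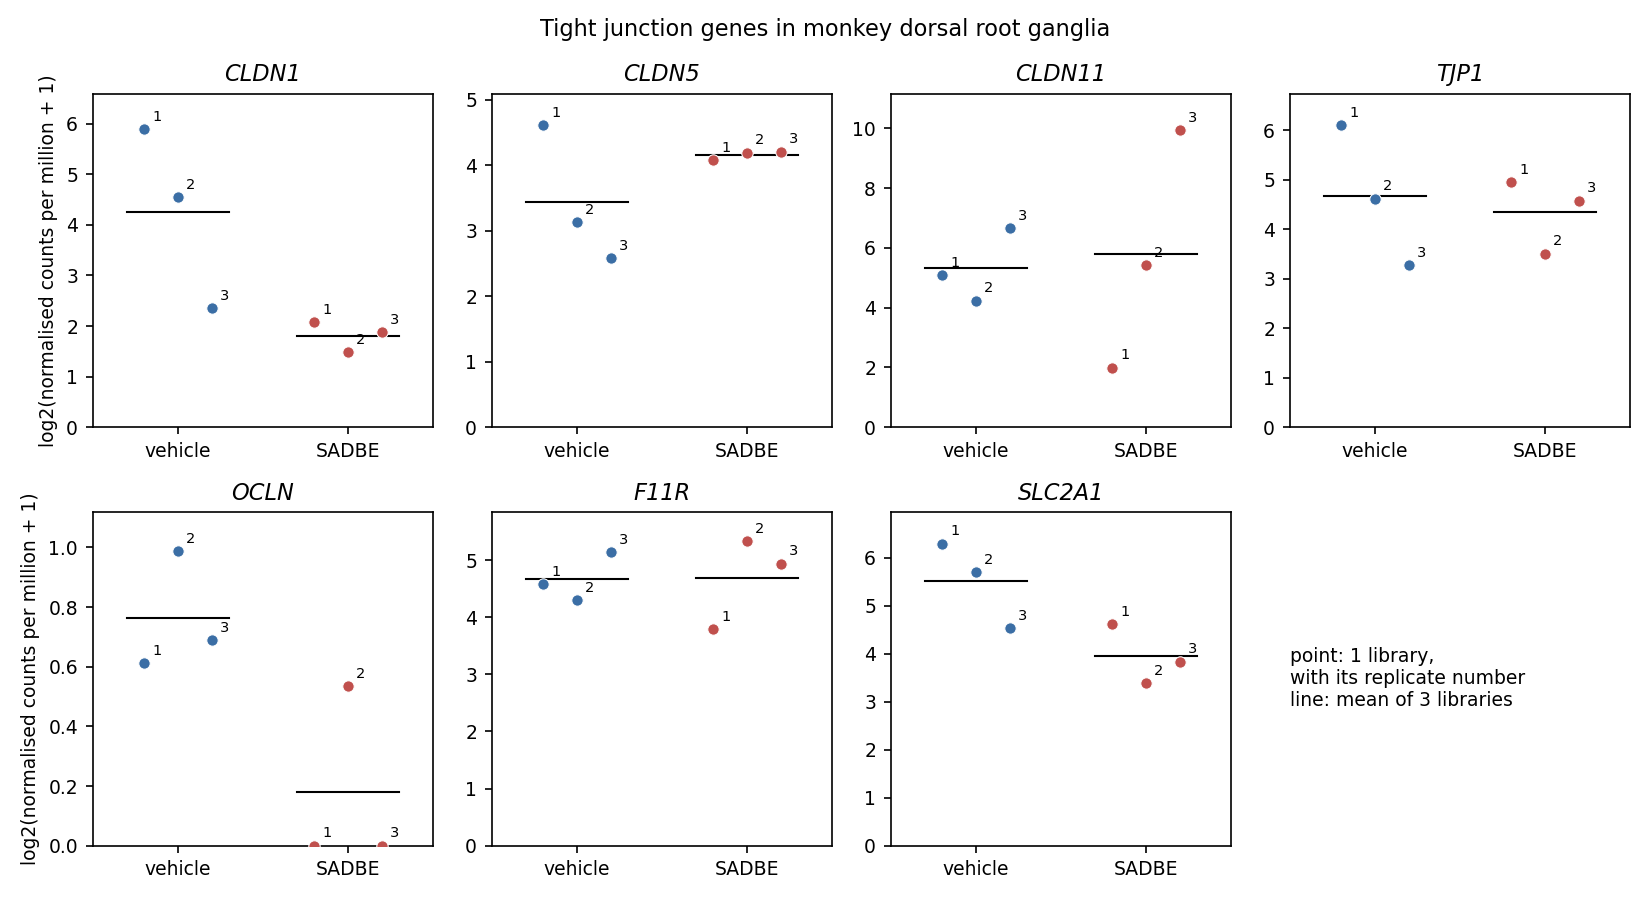
Log2(CPM + 1) (vertical axes) of the 7 genes in each monkey library, labelled with its replicate number, with group means as lines. CLDN1 and OCLN are lower in all 3 SADBE libraries, vehicle library 1 is highest for CLDN1, CLDN5, TJP1 and SLC2A1, and SADBE library 3 stands apart for CLDN11.

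Vehicle library 1 was also the highest of the 6 for summed endothelial (192 TPM), perineurial (39.7 TPM), fibroblast (2860 TPM), neutrophil (3390 TPM) and erythroid (83.2 TPM) markers. The perineurial sum was 28.1, 6.72 and 11.6 TPM with SADBE and 39.7, 26.5 and 9.42 TPM with vehicle, and the groups overlapped. Vehicle library 3, the lowest vehicle library for this sum, was also the lowest of them for CLDN1, at 4.11 CPM. CLDN1 was chosen by its difference between these groups, so its lack of overlap is not set against the sum. None of the perineurial, arachnoid, endothelial or other tight junction markers was called in monkeys by edgeR or by DESeq2, with 0 at an unadjusted p under 0.05 of 4, 6, 13 and 19 tested. Of 9 epidermal markers in the monkey tables, 5 never reached 1 TPM. Among these, the keratinocyte marker KRT5 had no count in any monkey library, and EPCAM had none in 5 of the 6. The 4 that were tested were present: KRT10 at 22.3 to 40.9 TPM, PERP at 2.12 to 10.4, DSP at 0.21 to 8.64 and CDH1 at 0.81 to 4.2 TPM. The part of the other cell types in the CLDN1 difference was not tested.

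Per transcript length, CLDN11 was the highest of the 7 in vehicle at 33.3 ± 23.9 TPM, ahead of SLC2A1 at 27.0 ± 15.7 TPM and CLDN1 at 14.8 ± 13.8 TPM (SD, n = 3), all with overlapping ranges. OCLN was lowest at 0.52 ± 0.32 TPM. With SADBE, CLDN1 was at 1.31 ± 0.46 TPM, sixth in order, below TJP1 at 4.92 ± 2.62 TPM by more than their SD. CLDN5 varied least of the 7 with SADBE relative to its mean, at 12.2 ± 0.34 TPM.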

How the data were processed

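Total RNA of fresh frozen DRG was sequenced at a core facility, per the labels' protocols. The authors deposited estimated counts and TPM per gene for each species, made with kallisto per the submitters' processing notes. Those notes name GRCm38 on the monkey samples too. The kallisto version, the monkey transcriptome and the strandedness are not given in the sources used here. Reads that fit several transcripts are shared out among them by this tool. The deposited mouse TPM columns were rescaled to the same total. Their deposited totals were lower in every batch 1 library than in any batch 2 library, and lowest in flox library 2. Rescaling therefore raised batch 1 values more, for Cldn1 from 54.7 to 91.1 TPM in flox library 2. In flox library 6 of batch 2 it moved Cldn1 from 91.4 to 93.7 TPM.

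A mouse row that names no gene (0.0785% to 0.186% of counts) was left out, and estimated counts were rounded. edgeR 4.0.16 in R 4.3.3 was used for the quasi-likelihood test after filterByExpr (minimum count 10, minimum total 15) and TMM scaling, with batch as a term in mice and Benjamini-Hochberg adjusted p under 0.05 called. CPM values are TMM-scaled, and standard errors were derived from the F statistic. The edgeR steps were also run on simulated counts with a known change between groups. Those counts held no batch effect, so that run does not bear on the batch differences. DESeq2 1.42.0 and limma 3.58.1 gave alternatives.

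The 7 genes and all gene lists were chosen with earlier results of these data known. The rule for genes named took the 7, the 2 called genes with the lowest p of each other list, and the 5 genes with the highest correlation with Cldn1. Other list members are named where a count, a level or a library turned on them, chosen after their values were seen. Of the list members, 1 is counted but not reported here by name. Correlations used 100000 permutations. Promoters come from RefSeq (GRCm38.p6), gene positions from GENCODE M21. No 2 libraries held identical counts.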

Additional observations from a re-analysis of the deposited data

Results flagged for a closer look

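Ocln in flox library 6 stood apart from the other 6 flox libraries. It was at 38.7 CPM, and the other 6 lay between 10.8 and 22.8 CPM. The gap to the nearest library was larger, as a share of the range, than Dixon's test allows for 7 values. Those 7 came from both batches. Among the 4 flox libraries of batch 2 alone, library 6 was not outlying by the same test. Of 28 groups of library values examined this way, 1 was outlying, where chance gives about 1 in 20. Without that library the log2 fold change of Ocln was -0.38, with an edgeR adjusted p of 0.371.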

How the results depend on the processing

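Cldn1 was chosen by the difference between knockout and flox, so its calls are not counted here. Of the other mouse genes of the 7, Cldn11 and Tjp1 were called over both batches. None of them was called without the batch term or in batch 1 or batch 2 alone. With 1 library left out, Cldn11 was called by edgeR in 13 of 14 fits, Tjp1 in 5 of 14 and the rest in 0. All genes called numbered 2423, against 1539 with limma on unfiltered log2(TPM + 1), 564 without the batch term, 273 in batch 1 alone and 1587 to 3108 with 1 library left out. With the replicate number as a block 1121 genes were called, and Tjp1 was at -0.47 (edgeR adjusted p = 0.198). Correlations of the deviations of same-numbered libraries ran from -0.218 to 0.269 in mice and -0.39 to 0.302 in monkeys. In mice 3 of 7, and in monkeys 1 of 3, were most like their own number. With deviations taken within groups of 3 or 4 libraries, these values cannot settle whether same-numbered libraries were pairs. The mouse libraries numbered 4 also lay in different batches. Tjp1 lost its call in 17 of 27 alternatives and Cldn11 in 4 of 27. Cldn5 turned to 0.34 in batch 2 alone and ran from -0.16 to 0.07 with 1 library left out. The interaction called 161 genes by edgeR and 688 by DESeq2, and that of Cldn1 was 0.0034 with batch 1 flox libraries thinned. Scaling by library size moved the median of all genes to -0.14 for genotype and -0.34 for the flox batches, where Cldn1 turned to -0.19 and Cldn5 to -0.23. In monkeys, DESeq2 called 27 genes. CLDN1 was the only one of the 7 among them, and because it was chosen by the difference between SADBE and vehicle, its call is a description. F11R turned to -0.0089 with limma voom, -0.16 with SADBE libraries 2 and 3 summed, and ran from -0.28 to 0.44 with 1 library left out. In the same leave-one-out fits CLDN11 ran from -1.18 to 3.71 and TJP1 from -1.15 to 0.38. The causes were not tested. The counts for lists without single libraries were chosen after seeing the data.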
